A study of Mus musculus with 6 samples.

Results

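RNA levels of the lineage transcription factor families were followed in mouse CD4+ T cells. The families were the Hox, forkhead (Fox), Sox, Krüppel-like (Klf), Gata, T-box (Tbx), POU, Nkx, Pax, Lhx, sine oculis homeobox, Dlx, Irx, Bhlh, Hes, Id and Runx genes. Members were chosen by gene symbol, and 113 of the 13685 rows analysed matched. Of these, 2 matched by their letters only: Tbxa2r, the receptor of thromboxane A2, and Pou2af1, a coactivator that binds POU factors. The other 111 are called factors here. No Pax, Irx or Runx gene was analysed here, and of the Gata and Lhx families Gata5 and Lhx8 were the members analysed. The GENCODE M21 annotation holds 228 protein-coding genes with matching symbols, against the 113 analysed. Counts and shares by family speak of the analysed members alone.

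Tunicamycin cells were WT CD4+ T cells of the CD25- fraction, labelled non-Treg, taken from spleen and mesenteric lymph node and kept for 4 h with 0.15 µg/mL tunicamycin, an inhibitor of N-linked glycosylation that is used to set off the unfolded protein response. Vehicle cells were the same WT cells kept for the same time with the solvent, and their titles call them untreated. There were 3 libraries per group, which the labels call technical replicates of a single batch, and a p-value here speaks of library spread alone, which may be technical. The labels name neither donors nor the number of mice.

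Summed counts over the rows analysed were 10584276 to 11211270 in tunicamycin libraries and 7412151 to 9495725 in vehicle libraries. These are sums over part of the transcriptome and not library depths. Markers of T cells were high in both groups, with mean levels of 588 TPM for Cd3e and 203 TPM for Cd28 over the 6 libraries, and Cd4 itself was not analysed here. Il2ra, which encodes CD25 and was the 1 of 4 regulatory T cell markers with a row, was at 7.74 to 14.1 TPM in tunicamycin libraries and 6.87 to 8.41 TPM in vehicle libraries. TPM is a level scaled to transcript length and to the library, so it can be compared between genes. Of 8 B cell markers 3 had a row, and their summed level was 0.745 to 1.20 TPM in tunicamycin libraries and 0.886 to 1.22 TPM in vehicle libraries. For 4 of 7 macrophage and monocyte markers it was 5.43 to 11.3 TPM in tunicamycin libraries and 3.98 to 11.7 TPM in vehicle libraries. For 3 of 7 plasma cell markers it was 26.1 to 191 TPM in tunicamycin and 21.4 to 183 TPM in vehicle libraries. For 7 of 8 erythroid and platelet markers it was 2.31 to 7.77 TPM and 3.28 to 12.4 TPM, in the same order of groups. For 5 of 8 NK cell markers it was 11.8 to 16.6 TPM and 9.03 to 11.3 TPM. Cd8b1, a marker of CD8 T cells, was at 10.5 to 11.9 TPM and 9.47 to 10.8 TPM.

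As background, most of these families bind DNA through a shared fold, such as the homeodomain of Hox and Nkx factors, the forkhead of Fox factors or the zinc fingers of Klf factors. Most of them lay out body axes and organs in the embryo and are shut in blood cells. A few are used by lymphocytes: in mice, Foxo1 and Klf2 keep naive T cells quiescent and circulating, and Id proteins hold back E proteins by forming dimers that do not bind DNA. The comparison asks which members are on or silent in these cells, and whether tunicamycin shifts them.

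A gene was called on where it reached at least 1 TPM in every library and silent where it had 0 counts in every library. Of the 113 members, 14 were on (12.4%), 47 were intermediate (41.6%) and 52 were silent (46%). Of all 13685 rows, 18% were on and 50.7% were silent, and of the 8538 protein-coding rows 26.2% were on and 44.4% were silent. A count of 0 allows up to 3 counts per library, for counting error only. This is 0.268 to 0.283 CPM in tunicamycin libraries and 0.316 to 0.405 CPM in vehicle libraries. CPM here is counts scaled to the summed counts over the rows analysed. In the test results below, CPM is scaled to the tested genes, with TMM factors. Fewer cells of a type and less RNA per cell cannot be told apart in bulk RNA.

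Among the analysed members, the Klf family had the most on, 6 of 9. The Fox family had 3 on of 27, and the Sox, Hes and Id families 1 each, of 10, 6 and 2. No Bhlh, Tbx or Gata factor reached the threshold, of 4, 4 and 1. The homeodomain families, namely Hox, Nkx, Dlx, Lhx, sine oculis homeobox and POU, had 0 on of 48 factors and 26 silent (54.2%). Within them, 15 of 25 Hox genes and 6 of 8 Nkx genes had no counts in any library. These shares are descriptions, and they were not tested.

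**Figure D1:**
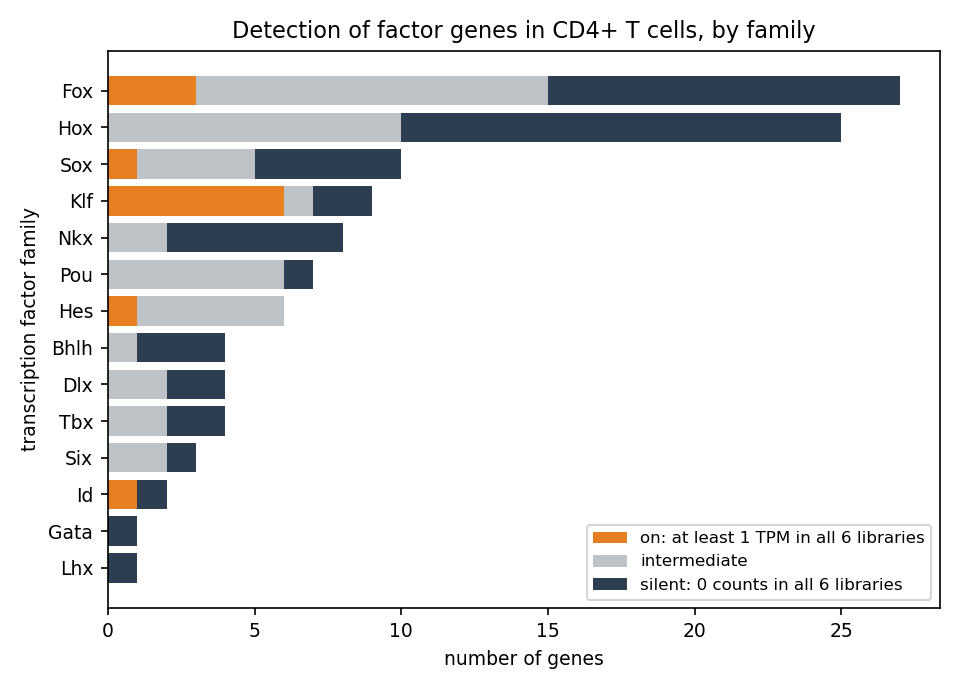
Number of genes (horizontal axis) in each factor family (vertical axis) that were on, intermediate or silent in the 6 libraries, without the 2 genes that match by letters only. The Klf bar is mostly on, with 6 of 9 genes, whereas the Hox bar has 0 on and 15 of 25 silent.

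The silent genes included factors that define other lineages. They were Sox1, Sox2, Sox9, Sox11 and Sox21 among the Sox genes, which act in neural, pluripotent and cartilage cells. Foxa1 and Foxn1, factors of endoderm and of the thymic epithelium, had no counts in any library, and neither had Nkx2-5, a factor of the heart. The silent Hox genes were Hoxb2, Hoxb5, Hoxb7, Hoxb8, Hoxc8, Hoxc10, Hoxc11, Hoxc12, Hoxc13, Hoxd1, Hoxd4, Hoxd8, Hoxd10, Hoxd12 and Hoxd13. All 6 Hoxd genes analysed were therefore at 0. Other silent members were Foxb1, Foxb2, Foxd1, Foxd3, Foxd4, Foxe3, Foxf1, Foxf2, Foxi2, Foxi3, Nkx1-1, Nkx2-4, Nkx3-2, Nkx6-3, Dlx3, Dlx4, Lhx8, Six6, Pou4f2, Gata5, Tbx10, Tbx18, Bhlha9, Bhlhe22, Bhlhe23, Klf14, Klf17 and Id4.

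Promoter sequences were set beside these classes, since on and silent members can be compared there by a feature that the symbols did not use. RefSeq promoters on GRCm38.p6 were matched by symbol for 70 of the 111 factors, and the 250 bases before the start in that source were used. The median number of CG dinucleotides was 18 for the 10 on factors, 15 for the 25 intermediate factors and 17 for the 35 silent factors, against 6 for all 27018 promoters. At least 10 CG were present in 9 of 10 on, 19 of 25 intermediate and 24 of 35 silent promoters, and in 38.2% of all promoters. The highest counts were 32 among on factors and 35 among silent factors, so the ranges of the classes overlapped. Printed here are the promoters of the most abundant Klf and Fox members and of the silent factors with the most CG, with each CG in capitals and the rest in lower case.
Klf2, on (chr8:72318812-72319061, plus strand): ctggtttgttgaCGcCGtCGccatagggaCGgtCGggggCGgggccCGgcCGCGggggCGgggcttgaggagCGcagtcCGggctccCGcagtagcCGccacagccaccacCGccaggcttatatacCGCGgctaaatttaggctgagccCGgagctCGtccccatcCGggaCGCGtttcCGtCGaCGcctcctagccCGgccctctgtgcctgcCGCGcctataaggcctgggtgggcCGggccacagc
Foxo1, on (chr3:52268087-52268336, plus strand): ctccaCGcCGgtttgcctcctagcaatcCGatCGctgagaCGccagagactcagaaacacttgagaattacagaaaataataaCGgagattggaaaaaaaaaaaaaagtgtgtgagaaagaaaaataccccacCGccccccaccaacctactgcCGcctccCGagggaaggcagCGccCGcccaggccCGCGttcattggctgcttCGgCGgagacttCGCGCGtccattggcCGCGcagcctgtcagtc
Id4, silent (chr13:48260866-48261115, plus strand): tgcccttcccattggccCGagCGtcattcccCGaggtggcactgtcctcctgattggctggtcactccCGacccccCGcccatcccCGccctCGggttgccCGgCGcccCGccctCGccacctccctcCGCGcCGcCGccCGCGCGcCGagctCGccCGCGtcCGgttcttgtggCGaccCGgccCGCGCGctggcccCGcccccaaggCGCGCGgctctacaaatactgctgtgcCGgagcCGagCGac
Nkx2-4, silent (chr2:147085346-147085595, minus strand): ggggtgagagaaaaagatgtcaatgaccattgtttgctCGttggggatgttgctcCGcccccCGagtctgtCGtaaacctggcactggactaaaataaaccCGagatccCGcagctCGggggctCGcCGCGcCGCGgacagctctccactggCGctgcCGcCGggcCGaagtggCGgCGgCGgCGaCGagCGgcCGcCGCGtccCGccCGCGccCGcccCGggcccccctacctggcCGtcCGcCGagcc
The Klf2 sequence holds 29 CG, that of Foxo1 20, that of Id4 35 and that of Nkx2-4 33. These windows do not all end at the gene start of GENCODE M21. The Klf2 and Nkx2-4 windows reach into the gene, which starts at 72319033 for Klf2 and at 147085445 on the minus strand for Nkx2-4. The Id4 window ends before the gene start at 48261228.

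**Figure D2:**
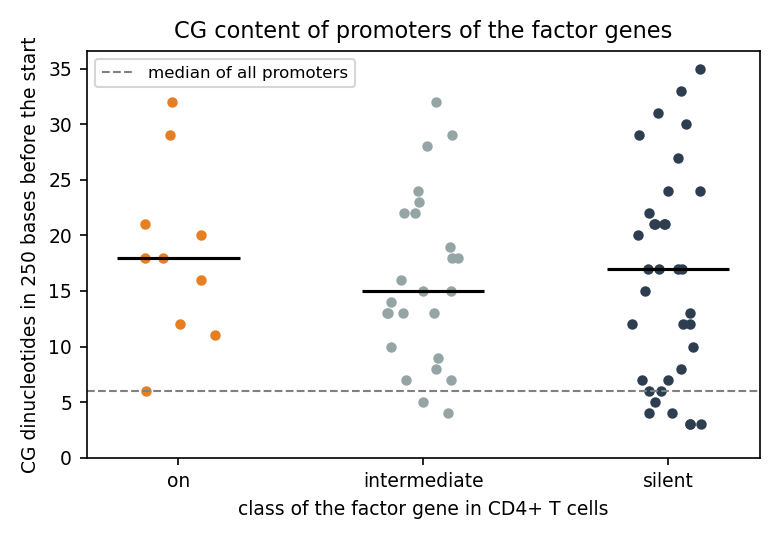
CG dinucleotides in the 250 bases before the start (vertical axis) for the 70 factors with a promoter sequence, 1 point per gene, by class in CD4+ T cells (horizontal axis). Black lines are class medians of 18, 15 and 17, all above the dashed median of 6 for all promoters, and the classes overlap.

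Short motifs were then counted on both strands of the same 250 bases. The GC box GGGCGG, bound by Sp and Klf factors, was found in 6 of 10 on and 21 of 35 silent promoters and in 32.9% of all promoters. The Klf core CACCC was found in 5 of 10 on and 21 of 35 silent promoters and in 51.3% of all. The forkhead motif GTAAACA was found in 1 of 10 on and 1 of 35 silent promoters and in 3.09% of all, and TATAAA in 1 and 3, against 13.0% of all. The CCAAT box was found in 4 of 10 on and 21 of 35 silent promoters and in 34.5% of all. Matches of different motifs can share bases, such as GGGCGG with the reverse complement of CACCC, or CACCC with CCAAT, and a match is a description of letters only.

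Klf2 and Klf6 were the most abundant of the analysed members. Together they made up 80.4% to 82.1% of the summed TPM of the analysed factors in tunicamycin libraries and 80.6% to 81.6% in vehicle libraries. Klf2 (ENSMUSG00000055148, chromosome 8 from 72319033 to 72321656 on GRCm38), which drives genes of lymphocyte egress such as S1pr1, was at 485, 449 and 451 TPM in tunicamycin replicates 1 to 3 and at 438, 379 and 404 TPM in vehicle replicates 1 to 3. Klf6 (ENSMUSG00000000078, chromosome 13 from 5861482 to 5870394), an early-response zinc finger factor, was at 195, 187 and 204 TPM in tunicamycin replicates and at 198, 194 and 210 TPM in vehicle replicates. The TPM of Klf2 was higher in each tunicamycin library than in any vehicle library, and the Klf6 levels of the groups overlapped.

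Among the forkhead factors, Foxo1 (ENSMUSG00000044167, chromosome 3 from 52268336 to 52353221), which maintains naive T cells and their interleukin 7 receptor in mice, was at 39.6, 43.7 and 43.3 TPM in tunicamycin replicates and at 40.8, 40.5 and 39.7 TPM in vehicle replicates. Its relative Foxo4 (chromosome X from 101254528 to 101260873) was at 27.8, 28.4 and 31.5 TPM in tunicamycin replicates and at 25.9, 25.1 and 26.3 TPM in vehicle replicates. Foxd2 (chromosome 4 from 114906282 to 114908873), a factor known from embryonic mesoderm, was at 2.66, 2.16 and 1.87 TPM in tunicamycin replicates and at 2.01, 2.16 and 2.03 TPM in vehicle replicates. The groups overlapped for Foxo1 and Foxd2 and were apart for Foxo4. An antisense gene covers 7.78% of the exons of Foxo1, and no other annotated exon overlaps Foxo4 or Foxd2.

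The other Klf members that were on lay well below Klf6. Klf16, which binds GC boxes, was at 37.7, 32.3 and 33.5 TPM in tunicamycin replicates and at 34.3, 30.5 and 32.4 TPM in vehicle replicates. Klf12, a repressor of the family, was at 3.68, 4.93 and 4.41 TPM in tunicamycin replicates and at 5.2, 4.45 and 5.62 TPM in vehicle replicates. Both pairs of groups overlapped. Klf4, known from monocytes and as a brake on lymphocyte proliferation, was at 1.70, 2.63 and 3.13 TPM in tunicamycin replicates and at 2.39, 1.77 and 2.56 TPM in vehicle replicates. Klf9, a glucocorticoid-induced factor, was at 1.46, 2.15 and 1.88 TPM in tunicamycin replicates and at 2.01, 1.78 and 1.78 TPM in vehicle replicates. The lowest Klf4 and Klf9 values were in tunicamycin replicate 1, and their groups overlapped.

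Of the helix-loop-helix genes, Hes6, which counters Hes1 in mouse neural cells, was at 19.1, 22.7 and 18.9 TPM in tunicamycin replicates and at 20.3, 18.9 and 15.6 TPM in vehicle replicates. Id3, an inhibitor of E proteins that restrains effector fates in T cells, was at 6.79, 6.60 and 5.56 TPM in tunicamycin replicates and at 6.23, 4.41 and 3.87 TPM in vehicle replicates. Sox4, an HMG-box factor known to curb the T helper 2 program in mice, was at 4.37, 5.36 and 4.17 TPM in tunicamycin replicates and at 4.24, 3.55 and 3.77 TPM in vehicle replicates. All 3 had overlapping groups. An opposite-strand noncoding gene covers 54.6% of the exons of Sox4, and reads of the pair cannot be told apart where counting ignores strand, and the sources used here do not state it.

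The genes that match by letters only were on as well. Tbxa2r was at 38.8, 34.2 and 34.9 TPM in tunicamycin replicates and at 32.6, 33.2 and 31.0 TPM in vehicle replicates, so its groups were apart. Pou2af1, which is best known from B cells, was at 2.35, 2.63 and 3.06 TPM in tunicamycin replicates and at 2.67, 2.83 and 1.78 TPM in vehicle replicates, and its groups overlapped. Plasma cells also make Pou2af1, and 3 of 7 plasma cell markers summed to 26.1 to 191 TPM in tunicamycin libraries and 21.4 to 183 TPM in vehicle libraries. The part of B-lineage cells in its level was not tested. In order of mean TPM the 14 genes ran Klf2, Klf6, Foxo1, Tbxa2r, Klf16, Foxo4, Hes6, Id3, Klf12, Sox4, Pou2af1, Klf4, Foxd2 and Klf9. Over the 6 libraries the ranges of Tbxa2r and Klf16 overlapped, as did those of Klf16 and Foxo4, of Id3, Klf12 and Sox4, and of the last 4 genes. The other neighbours in this order were apart in every library. For 9 of the 14 genes the highest library was under 1.5 times the lowest.

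**Figure D3:**
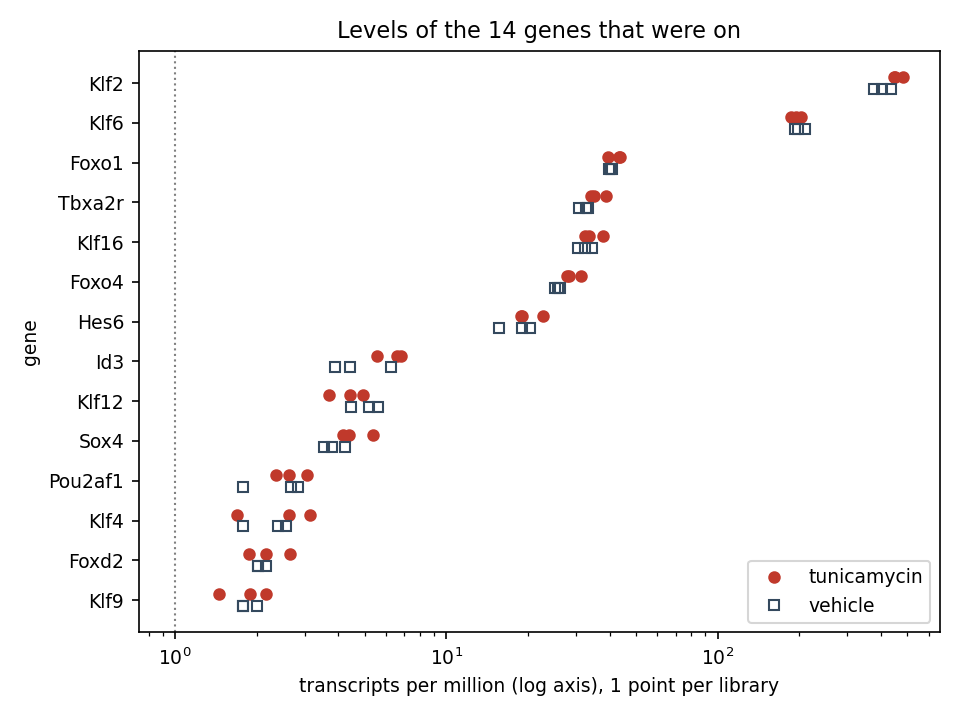
TPM (horizontal log axis) of the 14 genes that were on (vertical axis), with filled circles for the 3 tunicamycin libraries and open squares for the 3 vehicle libraries. The dotted line marks 1 TPM, and Klf2 lies at 449 to 485 TPM in tunicamycin and 379 to 438 TPM in vehicle libraries.

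Klf12 had few counts for its level. It had 88.3 to 133 counts in tunicamycin libraries and 75 to 121 counts in vehicle libraries, fewer in each library than Klf4, whose TPM was lower. The ratio of count to TPM, put on a scale of nucleotides with genes of a single transcript, gives an implied length behind a level. This is no measured transcript length and can miss the annotated one. Foxj1, with 1 transcript of 2623 nt, had implied lengths of 4101 to 4382 nt over the 6 libraries. Foxo1, with 1 transcript of 8665 nt, had 7991 to 8172 nt. For Klf12 this implied length was 749 to 804 nt in tunicamycin libraries and 716 to 807 nt in vehicle libraries, whereas its annotated transcripts run from 213 to 5890 nt. The TPM of Klf12 thus goes with an implied length far below the annotated length of its longest model.

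Just under the threshold lay genes whose level passed 1 TPM in some libraries. Tbx21, which encodes T-bet, the factor of T helper 1 and NK cells, was at 0.712, 0.957 and 0.620 TPM in tunicamycin replicates and at 0.752, 1.97 and 0.709 TPM in vehicle replicates. Vehicle replicate 2 stood apart, with 172 counts, against 72 to 113 in tunicamycin libraries and 64 and 78 in the other vehicle libraries. Summed over the 5 of 8 NK cell markers with a row, the level was 16.2, 16.6 and 11.8 TPM in tunicamycin replicates and 11.3, 9.03 and 11 TPM in vehicle replicates. It was lowest in vehicle replicate 2, where Tbx21 was highest, and its part in the Tbx21 values was not tested. Foxj1, a factor of motile cilia, ran from 0.481 to 1.26 TPM in tunicamycin libraries and from 0.600 to 0.809 TPM in vehicle libraries. The members just inside the threshold were Klf9 and Klf4, with lowest libraries of 1.46 and 1.70 TPM.

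Of the Hox genes, 10 of 25 had counts in at least 1 library. Hoxb4, known for the expansion of blood stem cells, had the highest mean TPM over the 6 libraries, at 0.720, 0.351 and 0.645 TPM in tunicamycin replicates and 0.927, 0.630 and 0.435 TPM in vehicle replicates. Hoxa7 had 21, 29 and 30 counts in tunicamycin replicates and 15, 7 and 51 counts in vehicle replicates. In vehicle replicate 3 its implied length was 1292 nt, against 2507 to 2549 nt in tunicamycin libraries and 2614 and 2619 nt in the other vehicle libraries, and its 1.32 TPM there were the highest of the libraries. An antisense gene covers 20.4% of the exons of Hoxa7. Hoxa5 had 18, 23 and 14 counts in tunicamycin replicates and 0, 0 and 11 counts in vehicle replicates, so its groups did not overlap, at levels of at most 0.365 TPM.

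Of the 47 intermediate members, 21 had at most 5 counts in every library and 9 had counts in all 6. Counts were present in a single library for 14, of which 6 were in a tunicamycin and 8 in a vehicle library. Hes5 and Hes1, repressors downstream of Notch, had at most 18 and 10 counts in any library, and Tbx2 at most 33. Bhlha15, a factor of secretory cells such as plasma cells, had 8, 23.2 and 10.5 counts in tunicamycin replicates and 0, 2 and 8.95 counts in vehicle replicates, and the groups overlapped. Beside it, the summed level of 3 of 7 plasma cell markers was 102, 191 and 26.1 TPM in tunicamycin replicates and 92.8, 183 and 21.4 TPM in vehicle replicates, and their part in the Bhlha15 counts was not tested. Among the intermediate Fox genes the highest count was 176, in Foxj1, and the next was 20, in Foxc2. In the Klf, Sox, POU, sine oculis homeobox, Nkx and Dlx families, no intermediate member had more than 15 counts in any library, a value reached by Klf5. Among the intermediate Sox genes the highest was 11, in Sox7.

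For the comparison of tunicamycin with vehicle, 23 members passed the filter on low counts and 90 did not. No member was called higher or lower (edgeR quasi-likelihood test, Benjamini-Hochberg adjusted over 3613 genes), and the lowest adjusted p was 0.836, for Tbx21. Of all tested genes, 0.0830% were called, 0.0554% higher and 0.0277% lower. At an unadjusted p under 0.05 edgeR gave 0 of the 23 members and 6.42% of all genes. DESeq2 called 0.554% of all 3613 genes, a share whose base includes genes without an adjusted p. It called 0 members, of which 5 (Klf2, Klf6, Klf16, Foxo1 and Foxo4) had an adjusted p and 18 had none. At an unadjusted p under 0.05 DESeq2 gave 0 members and 6.42% of all genes. Limma on log2(TPM + 1) called 0 members and 0.0277% of all genes, and 2 members, Hoxa5 and Klf2, had an unadjusted p under 0.05, against 7.94% of all genes. The median log2 fold change was -0.05 over the tested members and 0.0007 over all tested genes, with 10 members above 0 and 13 below.

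The intervals of the main test show how far a change in counts could go unseen. For the 14 genes that were on, the 95% interval of the log2 fold change lay within a 2-fold change in either direction. It was -0.18 to 0.08 for Klf2, -0.21 to 0.05 for Klf6, -0.14 to 0.09 for Foxo1 and -0.05 to 0.25 for Foxo4. It was wider for Id3, at -0.11 to 0.75, and for Klf12, at -0.87 to 0.38. Of the 23 tested members, 11 had an interval within a 1.5-fold change in either direction. Other readouts can fall outside these intervals. For Klf2, the estimates of 0.12 with effective-length offsets and 0.18 in log2(TPM + 1) by limma lay above its interval in counts.

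**Figure D4:**
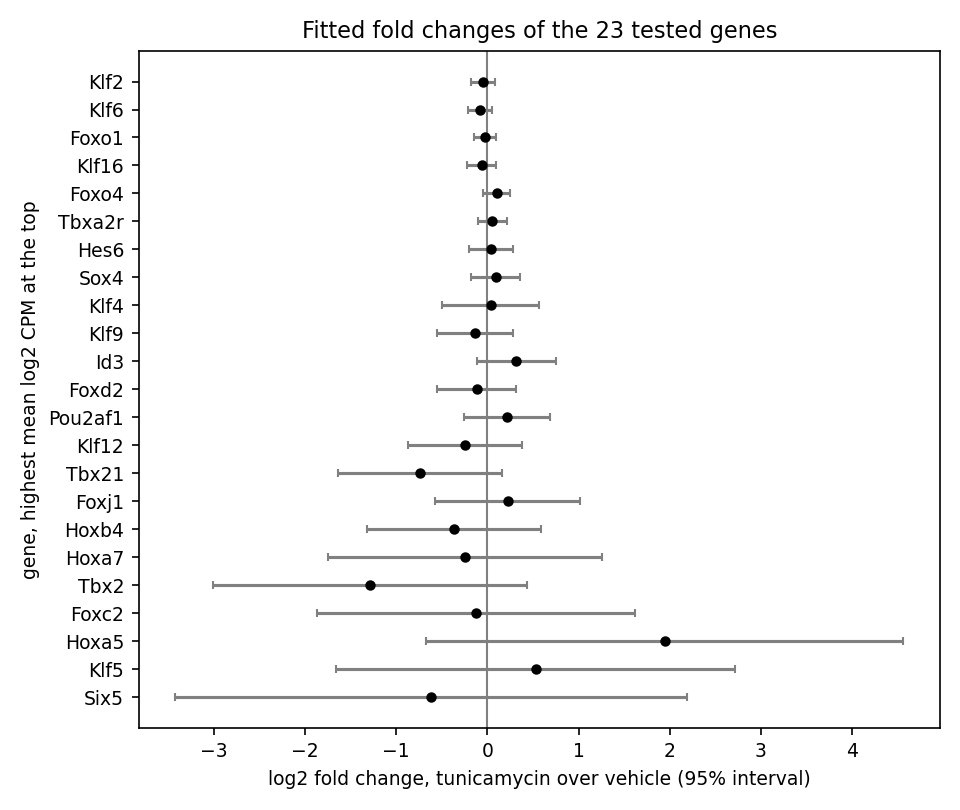
Fitted log2 fold change of tunicamycin over vehicle (horizontal axis) for the 23 tested genes, ordered by mean log2 CPM (vertical axis), with 95% intervals as bars. All intervals include 0, and they widen from Klf2 (-0.18 to 0.08) to genes of few counts such as Hoxa5 (-0.68 to 4.56).

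Apart from Id3, the largest fitted fold changes were in genes of few counts or wide spread, and none of them passed. Hoxa5 was at 1.94 log2 (95% interval -0.68 to 4.56), Klf5 at 0.53 (-1.66 to 2.72), Id3 at 0.32 and Foxj1 at 0.22 (-0.57 to 1.02). Tbx2 was at -1.29 (-3.01 to 0.43), Tbx21 at -0.74 (-1.64 to 0.16), Six5 at -0.62 (-3.43 to 2.19) and Hoxb4 at -0.37 (-1.33 to 0.58). Without tunicamycin replicate 2 Foxj1 was at -0.11, and without vehicle replicate 1 Klf5 was at 0.06 and Hoxb4 at -0.08. Without vehicle replicate 2, Six5 was at 0.19, Tbx2 at -0.72, Tbx21 at -0.10 and Hoxa5 at 1.42, so Foxj1 and Six5 changed sign. Without vehicle replicate 3 Klf5 was at 1.59, and without tunicamycin replicate 2 Six5 was at -1.68. Without vehicle replicate 3 Hoxa5 was at 7.00, where the remaining vehicle libraries had 0 counts and the fitted value depends on the prior count. Hoxa5 was the member whose CPM values did not overlap between the groups, 1 of 23, against 12.6% of all tested genes (6.62% with tunicamycin above and 5.95% with tunicamycin below).

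For Klf2, counts and TPM did not give the same picture. In CPM, Klf2 was at 3339, 3093 and 3083 in tunicamycin replicates and at 3395, 3106 and 3349 in vehicle replicates, and the groups overlapped. The log2 fold change was -0.05 in counts, 0.18 in log2(TPM + 1) by limma (adjusted p = 0.555) and 0.12 in counts with effective-length offsets (edgeR adjusted p = 0.755). The implied length of Klf2 was 2293, 2347 and 2280 nt in tunicamycin replicates and 2515, 2605 and 2546 nt in vehicle replicates, so the groups were apart while GENCODE M21 holds 1 transcript of Klf2, of 1847 nt. Of 2182 genes with at least 100 counts in every library, 3.44% had as low a ratio of implied lengths between the groups as Klf2. All 3 tunicamycin lengths lay below all vehicle lengths for 12.9% of those genes and for 5 of the 13 members among them, namely Klf2, Klf16, Sox4, Foxd2 and Klf9. The TPM values of the groups were apart for 4 of the 23, all higher in tunicamycin, namely Klf2, Tbxa2r, Foxo4 and Hoxa5, against 10.4% of all tested genes with tunicamycin above, 3.54% with tunicamycin below and 13.9% in either direction. The median of all tested genes was 0.0458 in log2(TPM + 1), against 0.0007 in counts. The sign of the fold change differed between counts and log2(TPM + 1) for 5 of the 23 members, and the part of the implied length in the TPM differences was not tested.

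**Figure D5:**
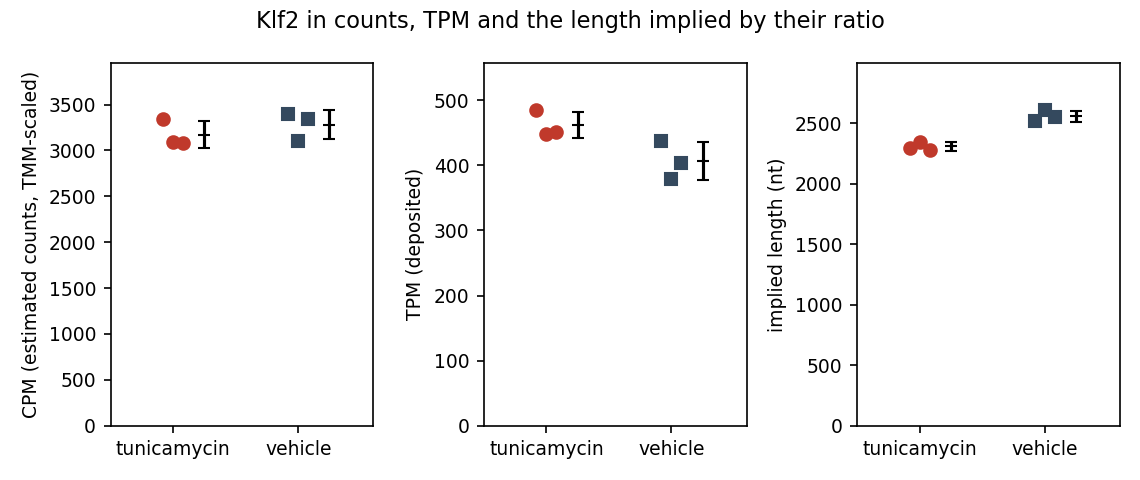
Klf2 in each library as TMM-scaled CPM (left), deposited TPM (middle) and implied length in nt (right), with mean and SD of 3 libraries as bars. The implied length comes from the ratio of the deposited estimated count to TPM, for tunicamycin and vehicle alike. CPM overlaps between the groups, while TPM is higher and the implied length lower in all 3 tunicamycin libraries.

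Genes around these families were looked at through lists. Of 17 reported targets of Foxo1 and Klf2, 10 were tested and 0 passed in either direction, with a median log2 fold change of 0.0045. At an unadjusted p under 0.05 edgeR gave 1 of them, Bcl2, and 0, 1, 2, 0 and 0 genes of the lists that follow, in their order. The egress receptor S1pr1 was at -0.05 log2 (95% interval -0.18 to 0.09), the lymph node homing receptor Ccr7 at -0.08 (-0.26 to 0.09), and Il7r had an interval of -0.15 to 0.15. Of 26 genes of the Notch pathway upstream of Hes genes, 8 were tested and 0 passed, with a median of 0.08, and Lfng, which modifies Notch, was at -0.03 (-0.15 to 0.10). Of 27 T cell identity factors outside the families, 6 were tested and 0 passed, with a median of 0.06, and Ikzf3 was at 0.11 (-0.06 to 0.28). Zbtb16, the factor of innate-like T cells, named after its values were seen, was at 1.37 (0.56 to 2.17), with 0.711, 1.91 and 1.94 TPM in tunicamycin replicates and 0.513, 0.664 and 0.472 TPM in vehicle replicates (edgeR adjusted p = 0.401). Beside it, all 4 tested NK cell markers were above 0, with a median of 1.13, from Prf1 at 0.02 to Klra8 at 2.06. Of them 0 were called, and edgeR gave 1, Gzma, at an unadjusted p under 0.05. Their part in the Zbtb16 values was not tested.

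Of 29 Polycomb group genes, which keep developmental factors shut in many cell types, 6 were tested and 0 passed, with a median of -0.07 and 4 of the 6 below 0. Cbx2, named after its values were seen, was at -0.24 (-0.46 to -0.01, edgeR adjusted p = 0.705). Phf1 was at 78.8, 77.8 and 76.5 TPM in tunicamycin replicates and at 68.0, 68.9 and 61.5 TPM in vehicle replicates, with a log2 fold change in counts of 0.11 (edgeR adjusted p = 0.713). Of 22 genes of TGF-beta and BMP signalling, 2 were tested, and of 33 dimer partners and cofactors 2 were tested, Lyl1 and Pou2af1, and 0 passed in either list. Their medians were -0.03 and 0.32.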

How the data were processed

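For 3 tunicamycin and 3 vehicle samples, mRNA libraries started from 200 ng of RNA and gave read pairs of 150 bp, per the labels' protocols. Salmon, bcl2fastq, DESeq2 and the build GRCm39 are named, without roles, in the submitters' processing notes. The authors deposited estimated counts per gene, partly fractional and not scaled to depth, and TPM values for the same rows. Symbols, matched for 13627 of 13685 identifiers, and positions come from GENCODE M21 on GRCm38, with no conversion to GRCm39.

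Estimated counts were rounded to whole numbers, and edgeR 4.0.16 (R 4.3.3) gave the main test (filterByExpr, TMM, robust quasi-likelihood F test, 2-sided, Benjamini-Hochberg over 3613 genes, threshold 0.05). Alternatives were other scalings and filters, DESeq2 1.42.0, limma 3.58.1 on log2(TPM + 1) and log2(TPM + 0.1), offsets for effective length (count over TPM), a replicate block and leaving out each library. Same-numbered libraries correlated at 0.0371, 0.187 and 0.107 in their deviations from group means over 3613 genes. Other-numbered libraries correlated at -0.133 to 0.028, lower than every same-numbered pair. Not every same-numbered pair passed the cut of 0.1, so the main test did not use the numbers as pairs. With the numbers as a block, 14 genes were called higher and 22 lower, against 2 and 1 in the main test. The summed level of 3 of 7 plasma cell markers ran in the same order of replicates in both groups. It was 102, 191 and 26.1 TPM in tunicamycin replicates 1 to 3 and 92.8, 183 and 21.4 TPM in vehicle replicates. That of 5 of 8 NK cell markers did not, at 16.2, 16.6 and 11.8 TPM and at 11.3, 9.03 and 11.0 TPM. What same-numbered libraries share is not stated in the labels and was not tested.

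The members and lists were chosen with earlier results of these data known. Named were all members that were on, the 4 largest positive and 4 largest negative fold changes, up to 3 intermediate members per family, and up to 3 genes per list by TPM.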

Additional observations from a re-analysis of the deposited data

How the results depend on the processing

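No member with an adjusted p was called in any of 17 alternatives. DESeq2 gave 18 of the 23 tested members none, and the stricter filter left out 3, Klf5, Six5 and Foxc2. The lowest adjusted p was 0.346, for Klf2 with a replicate block and effective-length offsets. Of the 23 tested members, 11 kept 1 sign in every alternative that tested them, which for Klf5 leaves out the stricter filter. The median of the tested members was 0.07 with limma on log2(TPM + 1), 0.09 with log2(TPM + 0.1), 0.07 with length offsets and 0.05 with the block and length offsets, and below 0 in the others. With the replicate block it was -0.03 and 0 members were called. Silent members numbered 52, and 81 with a limit of 0.1 TPM, since that limit takes in genes with a few counts. Without each library in turn, 14 members were on and 53 to 55 silent.

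Over all genes, 2 were called higher and 1 lower. The counts of higher and lower calls were 10 and 6 without a filter, 4 and 16 by DESeq2, 1 and 0 by limma on log2(TPM + 1), and 14 and 22 with the replicate block. With the block and length offsets 3 were higher and 3 lower. Lower calls were 2 with DESeq2 size factors or the stricter filter and 0 without a composition factor, without robust estimation, with limma on log2(TPM + 0.1) or with length offsets. Leaving out each library gave 1 to 4 higher and 0 to 1 lower. The cause was not tested. Genes of few counts, such as Hoxa5, have intervals too wide to show a 2-fold change.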
